A study of Mus musculus with 5 samples.

Results

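The CXC chemokine ligands described here are 7 genes of the mouse chemokine family, Cxcl1, Cxcl2, Cxcl9, Cxcl10, Cxcl12, Cxcl14 and Cxcl16, taken by gene symbol from a table of 21983 genes. All 7 had counts and all 7 were among the 12543 genes abundant enough to be tested. They were measured by RNA sequencing in 5 libraries of primary microglia from mouse brain. The tested genotype, labelled Cx3cr1CreERT2 Ythdf2fl/fl, has 2 libraries, called labelled knockout 1 and 2. The controls, labelled Ythdf2fl/fl, have 3 libraries, called control 1 to 3. Both genotypes carry floxed Ythdf2 alleles, which are intact until Cre acts. The tested genotype also carries CreERT2, a Cre recombinase that tamoxifen switches on, at Cx3cr1, a locus that microglia and other mononuclear phagocytes use. Presence of Cre, any effect of its insertion on Cx3cr1 and loss of Ythdf2 therefore cannot be told apart by this pair of genotypes. The labels give no agent, age, sex or treatment, and name no animal or culture behind each library. So p-values reflect only how far these samples scatter, and that scatter may be technical.

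Chemokines are small secreted proteins that steer leukocytes through G protein-coupled receptors, and CXC members are named for the residue that separates a pair of cysteines. Cxcl1 and Cxcl2 attract neutrophils through Cxcr2 and are switched on by NF-kB in macrophages and microglia. Cxcl9 and Cxcl10 are induced by interferons and attract T and NK cells through Cxcr3. Cxcl12, made mainly by stromal and vascular cells, acts through Cxcr4 and Ackr3, and Cxcl16 is a transmembrane ligand of Cxcr6 that metalloproteinases can shed. Cxcl14 is a constitutively made chemokine whose receptor is not settled. YTHDF2 binds mRNAs that carry N6-methyladenosine and recruits the machinery that degrades them, and the genotype labels set microglia meant to lack it against microglia that keep it.

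The libraries held 15743468 and 19577217 gene counts in labelled knockout 1 and 2, and 15565624, 15744558 and 13947500 in controls 1 to 3. Ythdf2 itself stood at 103.5 and 127 CPM (read counts scaled to a common library size) in labelled knockouts 1 and 2, against 57.0, 69.2 and 68.8 CPM in the controls. The targeted gene thus goes against its label, and every direction below is drawn from the labels. Reads over the whole gene are counted, so the deletion itself is not checked by this value. Of 10 microglia markers all had counts, led by Csf1r at 2372 to 4220 CPM over the 5 libraries. Their summed level was 3489 and 4245 CPM in the libraries labelled knockout and 5749 to 7070 CPM in the controls. Markers of other cells were present too. Summed oligodendrocyte markers (7 of 7 counted) reached 11530 and 4296 CPM in the libraries labelled knockout and 1065 to 10070 CPM in the controls. Summed choroid plexus markers (7 of 7 counted) reached 169 and 225 CPM in the libraries labelled knockout and 7.54 to 27.1 CPM in the controls, and monocyte markers (5 of 5 counted) 54.5 and 23.4 CPM against 3.52 to 6.84 CPM. The microglia, choroid plexus and monocyte sums divided by group without overlap, but single genes did not all follow. Of the 10 microglia markers 4 were lower and 2 higher without overlap between groups, where 10.4% and 9.85% of all genes tested were. Tmem119 had 34.1 and 13.7 CPM in labelled knockouts 1 and 2, against 5.35 to 11.1 CPM in the controls, P2ry12 was higher as well, and Csf1r overlapped. Cx3cr1, the locus that carries Cre in the tested genotype, is part of the microglia sum and 1 of the 4 lower genes. It had 337 and 97.7 CPM in labelled knockouts 1 and 2, against 682, 992 and 681 CPM in the controls. The monocyte sum rested on Ace and Spn, while Ccr2 overlapped and Ly6c2 and Plac8 had 0 to 2 reads. The part of these cells in the results below was not tested.

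The 4 ligand genes known to answer NF-kB or interferon signals lie as neighbours on chromosome 5 (GRCm38). Cxcl1 lies at 90891241 to 90893115 and Cxcl2 at 90903871 to 90905938, both on the plus strand and 10755 bases apart. Cxcl9 lies at 92321347 to 92328079 and Cxcl10 at 92346638 to 92348889, both on the minus strand and 18558 bases apart (GENCODE M21). The 250 bases before each RefSeq start are printed because these pairs share an inducing signal. The windows are chr5:90890995-90891244 (Cxcl1, plus strand), chr5:90903649-90903898 (Cxcl2, plus strand), chr5:92328080-92328329 (Cxcl9, minus strand) and chr5:92348890-92349139 (Cxcl10, minus strand), from RefSeq on GRCm38.p6. Capitals mark matches to the kappa B consensus, the DNA word bound by NF-kB, or to an interferon response word, which is GAAA, any 2 bases and GAAA, on either strand.
Cxcl1: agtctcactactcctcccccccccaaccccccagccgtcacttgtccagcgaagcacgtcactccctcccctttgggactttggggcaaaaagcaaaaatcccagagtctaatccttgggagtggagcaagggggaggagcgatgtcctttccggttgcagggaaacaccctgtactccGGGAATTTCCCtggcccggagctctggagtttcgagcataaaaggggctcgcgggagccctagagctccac
Cxcl2: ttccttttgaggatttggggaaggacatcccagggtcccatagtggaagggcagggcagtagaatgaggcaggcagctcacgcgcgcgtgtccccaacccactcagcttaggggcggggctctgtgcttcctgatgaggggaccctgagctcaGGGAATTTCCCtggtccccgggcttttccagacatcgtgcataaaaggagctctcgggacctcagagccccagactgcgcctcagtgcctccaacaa
Cxcl9: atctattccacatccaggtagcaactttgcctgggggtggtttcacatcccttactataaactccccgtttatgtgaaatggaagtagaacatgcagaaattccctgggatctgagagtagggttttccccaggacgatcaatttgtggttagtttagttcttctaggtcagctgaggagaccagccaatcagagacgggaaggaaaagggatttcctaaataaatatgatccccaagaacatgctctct
Cxcl10: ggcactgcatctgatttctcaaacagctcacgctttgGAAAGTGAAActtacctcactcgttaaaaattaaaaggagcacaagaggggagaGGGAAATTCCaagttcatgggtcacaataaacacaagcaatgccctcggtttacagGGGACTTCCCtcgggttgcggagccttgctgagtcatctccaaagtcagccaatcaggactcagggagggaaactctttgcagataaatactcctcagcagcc

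The Cxcl1 and Cxcl2 windows share a run of 14 bases, GGGAATTTCCCTGG, the longest between any pair of the 6 members with a promoter in the table. Its first 10 bases, GGGAATTTCC, begin 71 bases before the start in Cxcl1 and 97 bases before it in Cxcl2. Searched on both strands, that word occurs in 28 of 32851 promoters (0.0852%). In each gene the kappa B consensus matches both strands within the capital stretch GGGAATTTCCC, so the 2 matches overlap. The consensus also occurs at 2 other sites in Cxcl10, and in 3.9% of all promoters. The interferon response word occurs in Cxcl10 as GAAAGTGAAA, 213 bases before the start, in Cxcl14 as GAAACAGAAA, and in 2.98% of all promoters. Cxcl9 and Cxcl10 share a run of 11 bases, CAGCCAATCAG. The Cxcl9 window holds neither word and so has no capitals. These matches describe letters in a window and not bound sites.

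In both groups Cxcl14 and Cxcl16 made up most of the CXC ligand RNA. Together they took 98.5% of the 7 genes' counts in labelled knockout 1 (95% Wilson interval 98.0 to 98.9, 2518 of 2556 counts) and 91.9% in labelled knockout 2 (91.1 to 92.6). In the controls they took 90.4% (89.7 to 91.0), 95.2% (94.6 to 95.7) and 89.6% (88.7 to 90.5). Intervals address counting error only, not variation between libraries. They may be too narrow even for that, since reads without molecular identifiers are not independent molecules. Per kilobase of merged exon, Cxcl14 averaged 82.6 CPM per kb over the 5 libraries, above 97.3% of 15940 genes with counts and a known length. Cxcl16 followed at 52.4 CPM per kb, and lay below Cxcl14 in each of the 5 libraries. That order depends on the length used, and in labelled knockout 2 the values were close, at 49.6 against 53.9 CPM per kb. Of the 3021 exon bases of Cxcl16, 552 overlap exons of Zmynd15, where reads may not have been counted. Before division by length Cxcl16 had more counts than Cxcl14 in labelled knockout 2 and in controls 2 and 3. Cxcl2 at 5.86 and Cxcl10 at 4.11 CPM per kb came next, and their order turned in control 3, where Cxcl2 had 2.16 and Cxcl10 10.6 CPM per kb. Cxcl9, Cxcl1 and Cxcl12 were lowest, at 0.561, 0.286 and 0.223 CPM per kb, and their ranges over libraries overlapped.

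**Figure D1:**
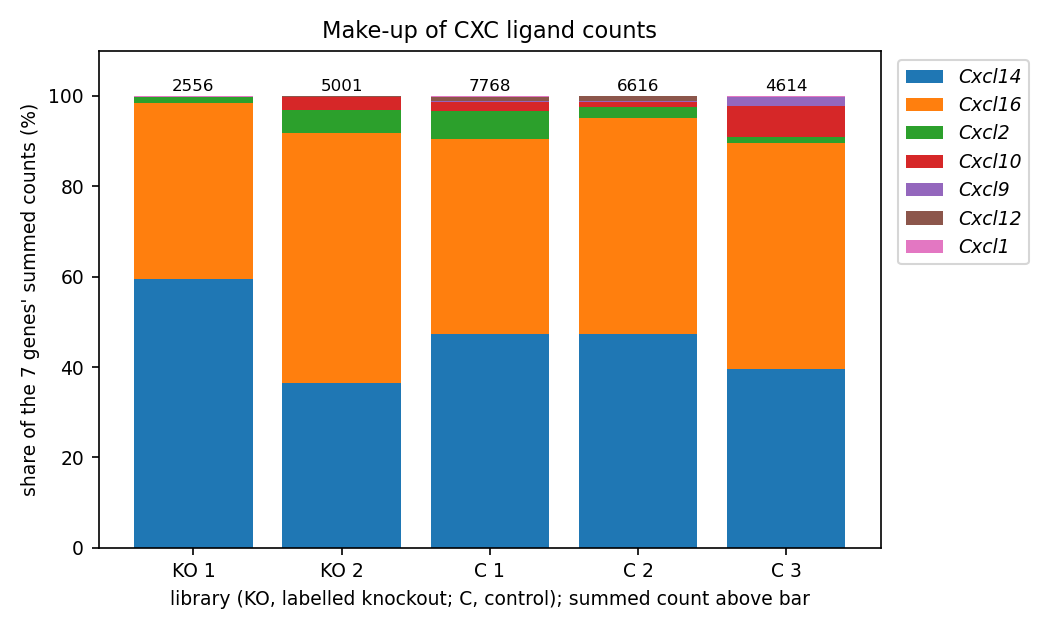
Share of the summed counts of the 7 CXC ligand genes taken by each gene, in percent (vertical axis), for the 2 libraries labelled knockout (KO) and the 3 controls (C), with the summed count above each bar. Cxcl14 and Cxcl16 together fill 89.6% to 98.5% of every bar, and Cxcl10 with Cxcl9 is widest in control 3.

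The fitted difference was negative for all 7 ligands, but none passed the test. The edgeR quasi-likelihood test called 0 of 7 members at an adjusted p under 0.05, where 0% of the 12543 genes tested were called, and the members' adjusted p ran from 0.517 to 0.926. At an unadjusted p under 0.05, 3 members were found, all lower (Cxcl9, Cxcl12 and Cxcl14), where 2.69% of all genes tested were lower at that level (338 genes) and 6.68% in either direction (838 genes). DESeq2 called 0 of 7, with a smallest adjusted p of 0.134, against 1.67% of 13854 genes (232 called). Limma-voom called 0 of 7 as well, with 0% of all genes called. Its 2 members at an unadjusted p under 0.05 were Cxcl14 (0.0136) and Cxcl16 (0.0461), while Cxcl9 (0.0712) and Cxcl12 (0.399) were not below it. A negative log2 fold change was found for 48.9% of all genes tested. The median of the 7 was -1.27, beside 0.01 over all genes tested. At least 2-fold lower were 4 members (Cxcl1, Cxcl9, Cxcl10 and Cxcl12), with Cxcl14 just short of it at -0.998, where 4.1% of all genes tested were. In 3 members (Cxcl9, Cxcl14 and Cxcl16) both libraries labelled knockout lay below every control, which held for 10.4% of all genes tested. In 0 members both lay above every control, against 9.85% of all genes tested. Labelled knockout 1 was the lowest of the 5 libraries for 6 members, a count chosen after the values were seen, and for 33.1% of all genes tested. In bulk libraries fewer cells of a type and less RNA per cell cannot be told apart.

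**Figure D2:**
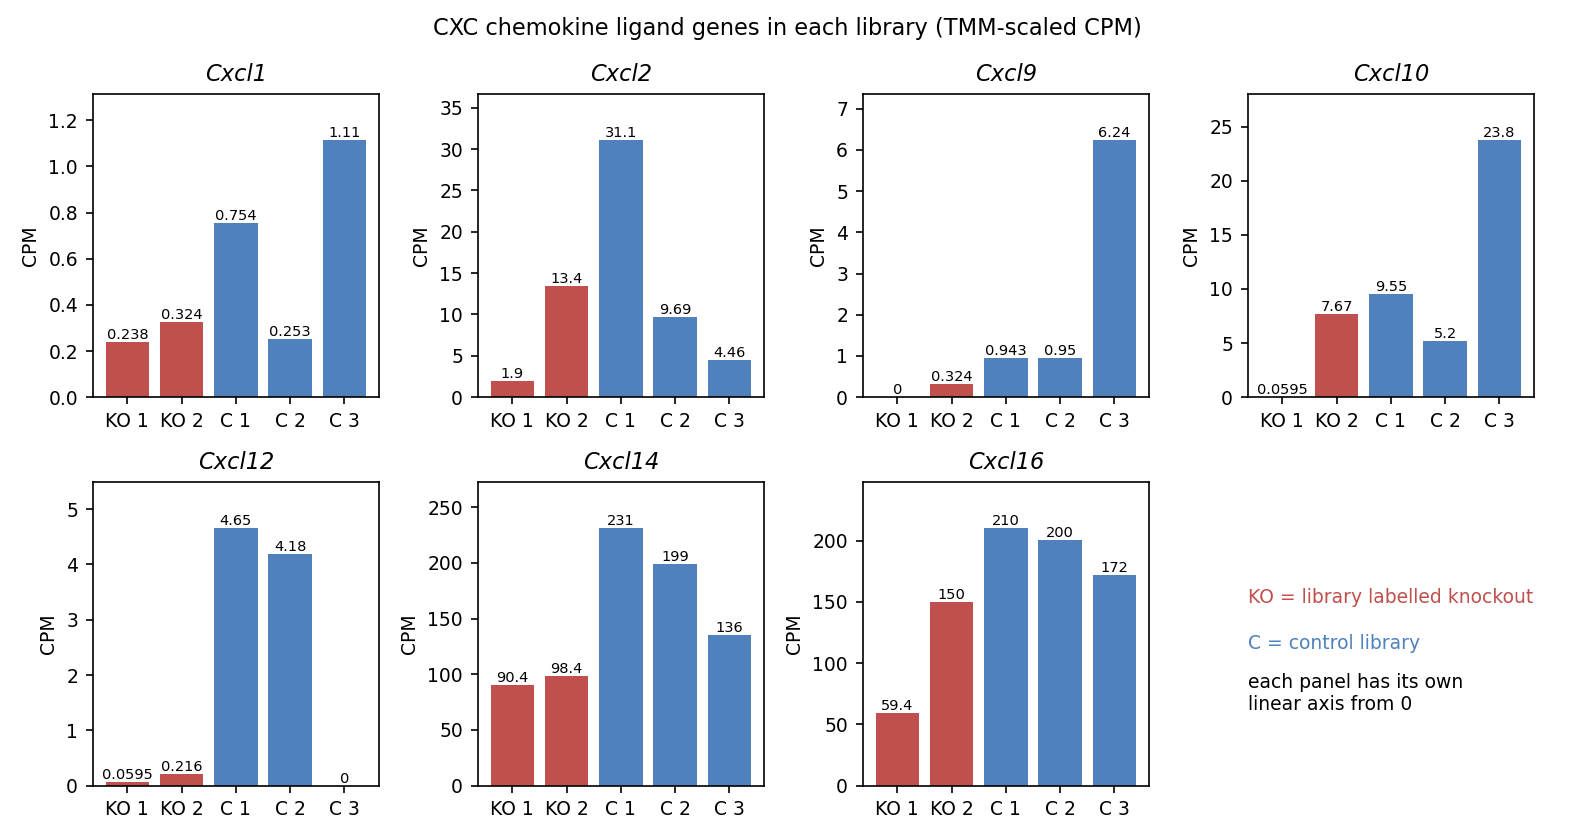
TMM-scaled CPM (vertical axes, linear, each from 0) of the 7 CXC ligand genes in the 2 libraries labelled knockout (KO, red) and the 3 controls (C, blue), 1 bar per library. For Cxcl9, Cxcl14 and Cxcl16 both KO bars lie below every C bar, while the other 4 genes overlap between the groups.

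Cxcl14 was the most evenly separated member. It stood at 90.4 and 98.4 CPM in labelled knockouts 1 and 2, against 231, 199 and 136 CPM in the controls. Both libraries labelled knockout lay close together and below the lowest control, and the summed microglia markers were also below their lowest control. The means were 94.4 ± 5.70 CPM (SD, n = 2) and 188 ± 48.5 CPM (SD, n = 3). The log2 fold change was -0.998 (SE 0.284, 95% interval -1.70 to -0.30). The edgeR test gave an unadjusted p of 0.0132 and an adjusted p of 0.517. Leaving out each library in turn gave values between -1.18 and -0.82. The gene lies on chromosome 13 at 56288643 to 56296551 (minus strand), with its exons free of overlap with other annotated genes.

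Cxcl16 was separated as well, though mainly through 1 library. It stood at 59.4 and 150 CPM in labelled knockouts 1 and 2, against 210, 200 and 172 CPM in the controls. The controls lay within 1.22-fold of each other, whereas labelled knockout 2 had 2.52 times the level of labelled knockout 1. The means were 105 ± 64.0 CPM (SD, n = 2) and 194 ± 20.0 CPM (SD, n = 3). The log2 fold change was -0.89 (SE 0.411, 95% interval -1.90 to 0.12; edgeR adjusted p = 0.817). The value was -0.40 without labelled knockout 1 and -1.71 without labelled knockout 2. Cxcl16 lies on chromosome 11 at 70453983 to 70459984 (minus strand), and 552 bases of its exons overlap exons of Zmynd15 on the other strand. The sources used here do not give the strand setting of the counting, so reads of the pair may not be told apart. Zmynd15 had 3.57 and 15.4 CPM in labelled knockouts 1 and 2, against 23.6, 17.2 and 22.2 CPM in the controls. The ratio of Cxcl14 to Cxcl16 counts, which no scaling of libraries affects, was 1.52 and 0.657 in labelled knockouts 1 and 2, against 1.10, 0.992 and 0.790 in the controls. The 2 libraries labelled knockout bracketed the controls in this ratio.

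The neutrophil attractants were low and uneven. Cxcl2 stood at 1.90 and 13.4 CPM in labelled knockouts 1 and 2, against 31.1, 9.69 and 4.46 CPM in the controls. The groups overlapped, with labelled knockout 2 at 7.04 times labelled knockout 1 and the highest control at 6.98 times the lowest. The log2 fold change of -0.98 (SE 1.06, 95% interval -3.59 to 1.63; edgeR adjusted p = 0.926) turned to 0.11 without control 1. It was -0.20 without labelled knockout 1 and -2.99 without labelled knockout 2. Cxcl1 was near the limit of detection, with 4 and 6 reads in the libraries labelled knockout and 12, 4 and 15 in the controls. In CPM that is 0.238 and 0.324 in labelled knockouts 1 and 2, against 0.754, 0.253 and 1.11 in the controls, with a log2 fold change of -1.27 (SE 0.881, 95% interval -3.43 to 0.88; edgeR adjusted p = 0.897). Labelled knockout 2 lay above control 2, so the groups overlapped. The transcripts of Cxcl1 and Cxcl2 share 0 words of 31 bases, so reads of that length or longer that match one exactly cannot match the other. Markers of neutrophils, which Cxcr2 serves, were near 0: 5 of 9 (S100a9, Ly6g, Ltf, Mpo and Retnlg) had no count in any library. Their summed level was 1.67 and 4.76 CPM in the libraries labelled knockout and 0.223 to 2.41 CPM in the controls.

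The interferon-induced pair differed most between single libraries. Cxcl10 stood at 0.0595 and 7.67 CPM in labelled knockouts 1 and 2, against 9.55, 5.20 and 23.8 CPM in the controls. Labelled knockout 1 held 1 read of it, while labelled knockout 2 with 142 reads lay inside the range of the controls. Its log2 fold change was -1.71 (SE 1.31, 95% interval -4.95 to 1.53; edgeR adjusted p = 0.919). The value was -0.76 without labelled knockout 1, -7.57 without labelled knockout 2 and -0.92 without control 3, and -3.54 by limma-voom. Cxcl10 exons overlap those of Art3 on the other strand by 133 bases, and Art3 had 0 to 6 reads per library.

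Cxcl9 had 0 and 6 reads in the libraries labelled knockout and 15, 15 and 84 in the controls, or 0 and 0.324 CPM against 0.943, 0.95 and 6.24 CPM. A count of 0 in labelled knockout 1 allows up to 0.178 CPM. Both libraries labelled knockout lay below every control, and control 3 was 6.62 times the lowest control. The log2 fold change was -3.92 (SE 1.49, 95% interval -7.51 to -0.33; edgeR adjusted p = 0.694, unadjusted p = 0.0368). It was -2.44 without control 3, and -8.36 without labelled knockout 2, where the remaining library of that label has no read. Cxcl9 and Cxcl10 together took 8.76% of the 7 genes' counts in control 3 (Wilson interval 7.97 to 9.61), against 0.0391% in labelled knockout 1 (0.00691 to 0.221) and 1.47% to 2.96% in the other 3 libraries.

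Cxcl12 separated the libraries in another way. It had 1 and 4 reads in labelled knockouts 1 and 2, against 74, 66 and 0 in the controls, or 0.0595 and 0.216 CPM against 4.65, 4.18 and 0 CPM. Controls 1 and 2 stood alone, and control 3, where a count of 0 allows up to 0.223 CPM, lay with the libraries labelled knockout. The log2 fold change was -4.33 (SE 1.64, 95% interval -8.25 to -0.41; edgeR adjusted p = 0.688, unadjusted p = 0.0351), and -4.90 without control 3. Limma-voom gave -2.74 (SE 3.02). Markers of fibroblasts and mural cells, where Cxcl12 is known to be abundant, were as a sum highest in the same 2 libraries. Their summed level, with 11 of 12 counted and Kcnj8 at 0, was 38.4 and 18.1 CPM in the libraries labelled knockout and 133, 128 and 41.3 CPM in controls 1 to 3. EdgeR called 0 and DESeq2 2 of the 12 fibroblast and mural markers. DESeq2 also called 7 of 7 choroid plexus, 3 of 10 microglia, 2 of 5 monocyte, 1 of 7 border macrophage and 1 of 8 endothelial markers. It called 0 of 7 oligodendrocyte markers, and 0 of the astrocyte, neuron, neutrophil and lymphocyte markers. Its share over all genes it adjusted was 1.67%. The endothelial gene called, Vwf, was higher in the libraries labelled knockout, while 4 of the 5 endothelial genes tested had a negative log2 fold change. Postn, a matrix protein of fibroblasts and 1 of the genes DESeq2 called, had 0.476 and 0.649 CPM in labelled knockouts 1 and 2, against 50.4, 58.9 and 13.2 CPM in the controls. The collagen genes Col1a1 and Col1a2 had 3.57 to 15.5 CPM in the libraries labelled knockout and 7.88 to 28.3 CPM in the controls. The part of these cells in the Cxcl12 result was not tested. Cxcl12 lies on chromosome 6 at 117168535 to 117181367 (plus strand).

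**Figure D3:**
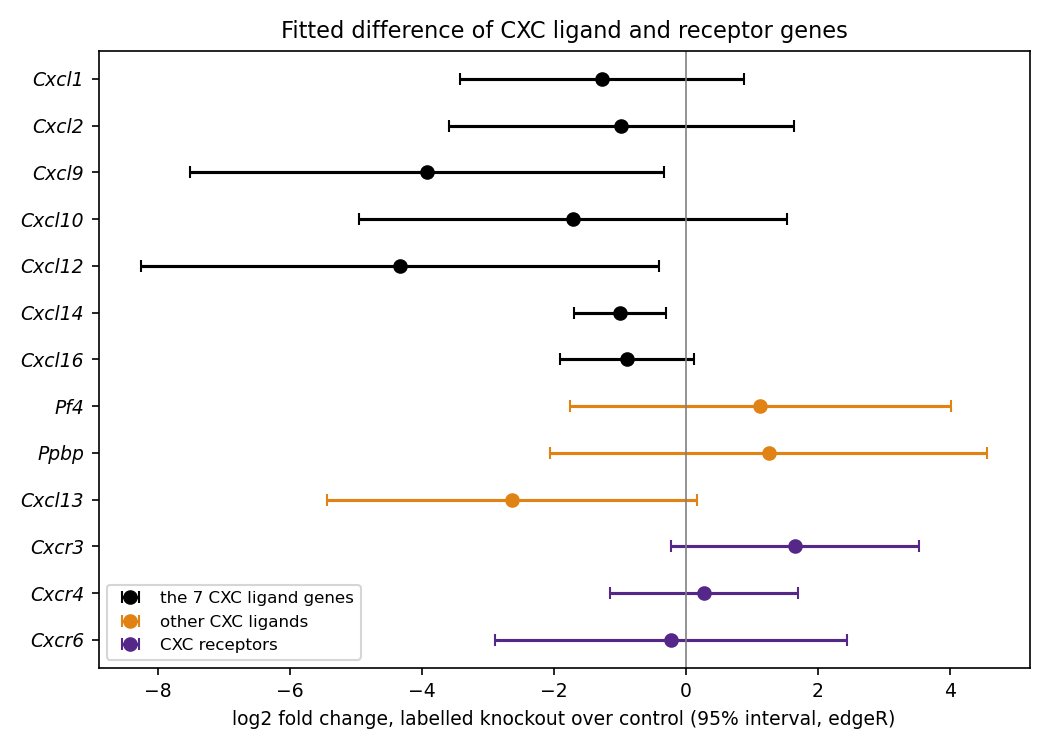
Log2 fold change of the libraries labelled knockout over the controls (horizontal axis; points, with bars for the 95% interval of the edgeR fit) for the 7 CXC ligand genes (black) and the other CXC ligands (orange) and receptors (purple) that were tested. The 7 points run from -4.33 for Cxcl12 to -0.89 for Cxcl16, and only the intervals of Cxcl9, Cxcl12 and Cxcl14 end below 0 before any adjustment over genes.

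The remaining CXC ligands did not share one pattern. Of 8 listed, 7 had counts, 3 were tested and 0 were called (0 at an unadjusted p under 0.05). Of all genes tested 0% were called and 6.68% reached that p. The 3 tested ligands had 2 positive and 1 negative log2 fold changes, with a median of 1.13. Pf4, a platelet chemokine also made by border macrophages, stood at 15.0 and 299 CPM in labelled knockouts 1 and 2, against 142, 41.0 and 32.9 CPM in the controls. Labelled knockout 1 was the lowest and labelled knockout 2 the highest of the 5 libraries. Border macrophage markers, of which Pf4 is 1 of 7 and all were counted, summed to 3057 and 4930 CPM in the libraries labelled knockout and 1868 to 5400 CPM in the controls. Most of that sum was Siglec1, at 2571 and 3229 CPM in labelled knockouts 1 and 2, against 1475, 1657 and 4715 CPM in the controls. Of the 7 markers 6 had a positive log2 fold change and 1 a negative one. F13a1 was higher and Lyve1 lower without overlap between groups, where 9.85% and 10.4% of all genes tested were. Cxcl3, a neutrophil attractant beside Cxcl1 and Cxcl2, had 0 and 3.46 CPM in the libraries labelled knockout and 0.149 to 0.566 CPM in the controls, and was not tested. Ppbp, another platelet chemokine, had 0.119 and 3.78 CPM in the libraries labelled knockout and 0 to 1.45 CPM in the controls. Cxcl13, which attracts B cells, had 0 and 2.76 CPM in labelled knockouts 1 and 2, against 7.04, 5.77 and 13.6 CPM in the controls. Its groups did not overlap (log2 fold change -2.64, SE 1.14, 95% interval -5.44 to 0.16; edgeR adjusted p = 0.778), and control 3 was again the highest.

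The receptors of these ligands were mostly scarce, and 0 of the 3 tested of 8 listed were called (0 at an unadjusted p under 0.05). The shares over all genes tested were 0% called and 6.68% at that p. Cxcr4, the receptor of Cxcl12, was the abundant one at 23.5 and 91.7 CPM in labelled knockouts 1 and 2, against 63.7, 35.4 and 43.3 CPM in the controls, with a log2 fold change of 0.28 (95% interval -1.15 to 1.70). Cxcr3, the receptor of Cxcl9 and Cxcl10, had 2.80 and 5.94 CPM in labelled knockouts 1 and 2, against 0.754, 0.634 and 2.90 CPM in the controls, with a log2 fold change of 1.65 (95% interval -0.23 to 3.52; edgeR adjusted p = 0.817). Lymphocytes are its usual carriers, and 5 of 7 of their markers (Cd3e, Cd3d, Cd8a, Nkg7 and Gzma) had no count in any library. The summed lymphocyte level was 9.28 and 8.27 CPM in the libraries labelled knockout and 4.44 to 73.7 CPM in the controls, nearly all of it Cd4. Cxcr6, the receptor of Cxcl16, had 0.833 and 0.0540 CPM in the libraries labelled knockout and 0.223 to 0.817 CPM in the controls. Cxcr2, the receptor of Cxcl1 and Cxcl2, had 1 read in all 5 libraries, and Ackr3 had 0 to 10 reads per library.

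Averaged over their genes, both inducing pathways were lowest in labelled knockout 1, as were the lists of other CXC ligands, mRNA decay genes and proteases. That library was the lowest of the 5 for 33.1% of all genes tested. The interferon signalling list had 16 of 18 genes tested and 0 called by edgeR or DESeq2 (0 at an unadjusted edgeR p under 0.05), 13 negative and 3 positive, with a median log2 fold change of -0.33 beside 0.01 over all genes. Of all genes tested 0% were called by edgeR, 6.68% reached that p and 48.9% were negative. DESeq2 called 1.67% of the genes it adjusted. Irf7, a transcription factor that amplifies interferon responses, stood at 51.5 and 390 CPM in labelled knockouts 1 and 2, against 224, 156 and 1226 CPM in the controls. Control 3 was highest and labelled knockout 1 lowest in Irf7, as in Cxcl9 and Cxcl10. Jak1, the kinase of interferon receptors, and Irf8, a factor of macrophage identity, gave log2 fold changes of 0.08 (SE 0.210) and -0.38 (SE 0.316). Ifng had no count in any library and Ifnb1 at most 1 read per library.

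The NF-kB and inflammatory list had 19 of 20 genes tested and 0 called by edgeR or DESeq2 (2 at an unadjusted edgeR p under 0.05), 14 negative and 5 positive, with a median log2 fold change of -0.37. Those 2 went opposite ways, Tnfaip3 lower (log2 fold change -1.02) and Tnip1 higher (0.76). Of all genes tested 6.68% reached that p and 48.9% were negative, and DESeq2 called 1.67% of the genes it adjusted. Its 4 most abundant genes, the receptor Tlr2 and the NF-kB subunits Nfkb1, Rela and Nfkb2, had log2 fold changes between -0.45 and 0.12. Il1b, chosen after the values were seen because it encodes an inducer of Cxcl1 and Cxcl2, had 0 and 5.13 CPM in labelled knockouts 1 and 2, against 25.8, 14.0 and 5.35 CPM in the controls. Its log2 fold change was -2.53 (SE 1.34; edgeR adjusted p = 0.868). Il1a, which encodes another ligand of the same receptor, had 10.2 and 24.97 CPM in labelled knockouts 1 and 2, against 12.005, 7.98 and 10.4 CPM in the controls. Its log2 fold change had the other sign, at 0.80 (SE 0.443; edgeR adjusted p = 0.874). The mean over the list of log2 CPM, centred over the 5 libraries, was -0.94 and 0.29 in labelled knockouts 1 and 2, against 0.35, 0.06 and 0.24 in the controls. The interferon list gave -0.84 and 0.31 in labelled knockouts 1 and 2, against 0.14, -0.06 and 0.46 in the controls, so that in both lists labelled knockout 2 lay within the range of the controls.

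**Figure D4:**
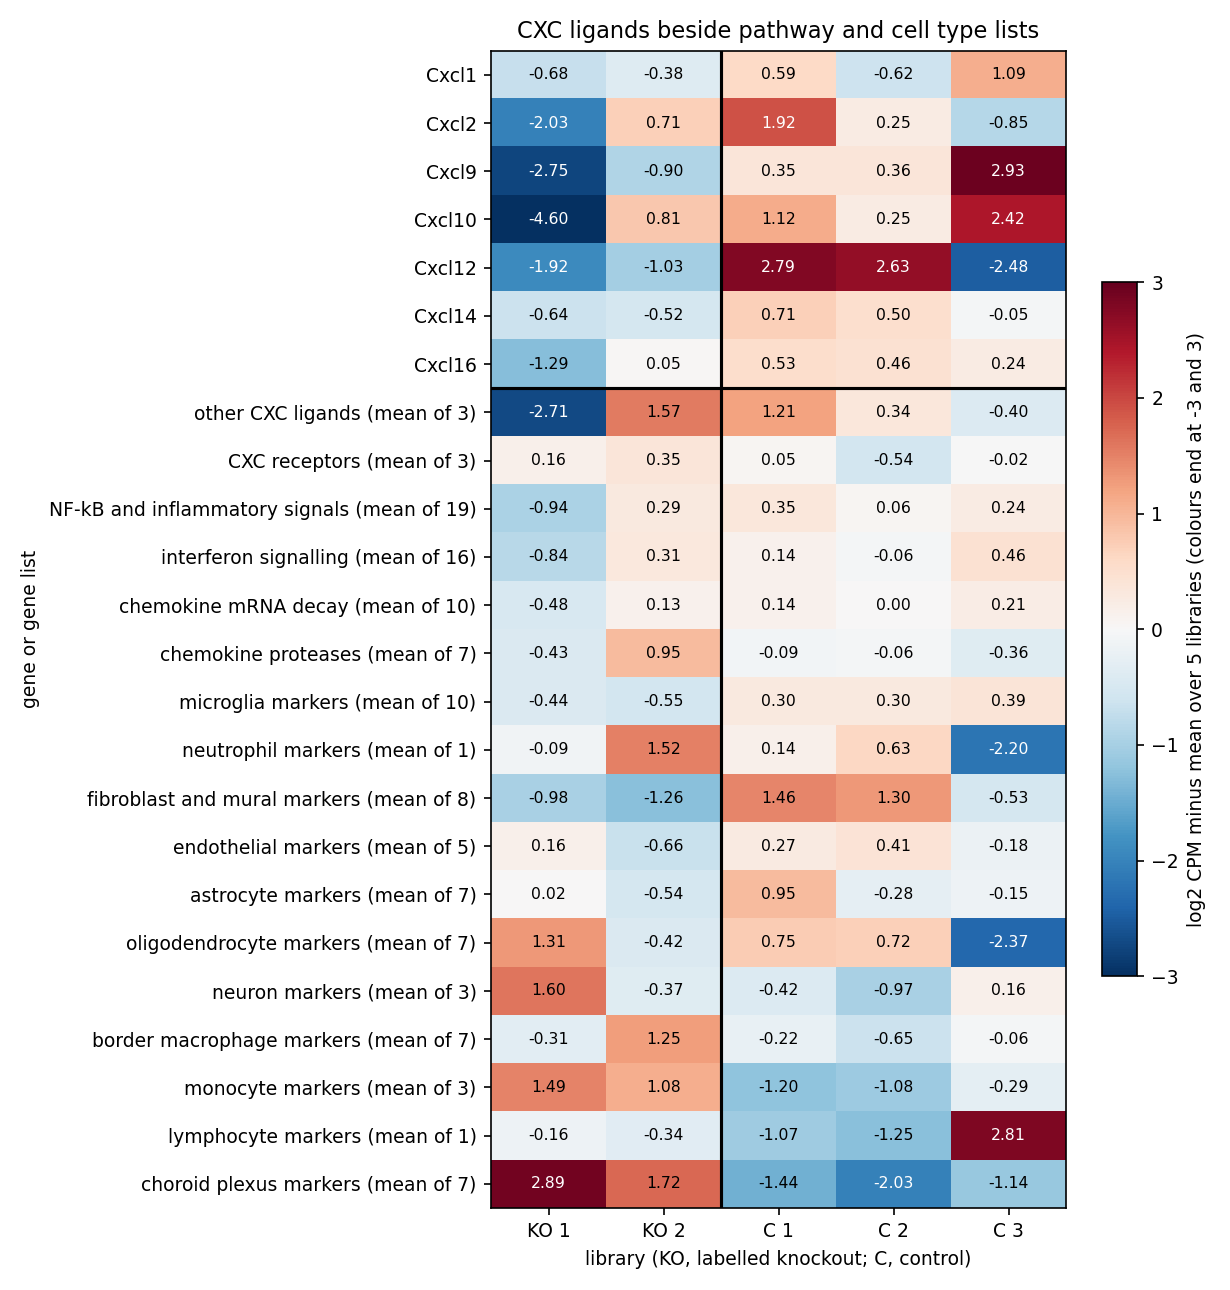
Log2 CPM minus its mean over the 5 libraries (colour and printed number) for the 7 CXC ligand genes (rows above the line) and, below it, the mean over the tested genes of each pathway or cell type list, in the libraries labelled knockout (KO) and the controls (C). Cxcl10 is at -4.60 in KO 1 and 0.81 in KO 2, and Cxcl12 and the fibroblast and mural list are highest in controls 1 and 2.

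Genes acting on chemokine mRNA or protein were counted next. Chemokine mRNAs of the Cxcl1 type carry AU-rich elements with the word ATTTA in their 3' untranslated regions, through which Zfp36 and related proteins speed decay. In the principal GENCODE transcripts Cxcl2 had 11 copies in 734 bases and Cxcl1 7 in 592 bases. At least as many occur in 5.08% and 13% of 12456 tested genes, with no allowance for length. Cxcl9 and Cxcl12 had 3 copies each, Cxcl10 and Cxcl16 2 each, and Cxcl14 none. The word GGACT, one form of the sequence in which N6-methyladenosine is found, occurred 5 times in the 2768 bases of Cxcl12, 3 times in Cxcl16, 2 times in Cxcl9, once each in Cxcl1 and Cxcl14, and not in Cxcl2 or Cxcl10. At least as many as in Cxcl12, Cxcl16 and Cxcl9 occur in 7.43%, 21.3% and 36.5% of the 12456 genes. At least 1 copy occurs in 61.8% of them, again with no allowance for length. A word is not a measured methylation site. Of the 10 genes of the mRNA decay list, all tested, 0 were called by edgeR or DESeq2 (3 at an unadjusted edgeR p under 0.05), with 6 negative and 4 positive. Those 3 were Zfp36 and Hnrnpd, both lower, and the targeted gene Ythdf2, which is on the list and was higher (log2 fold change 0.83). Over all genes tested, 6.68% reached that p and 48.9% were negative, and DESeq2 called 1.67% of the genes it adjusted. Zfp36, itself an inducible gene, stood at 29.6 and 92.2 CPM in labelled knockouts 1 and 2, against 231, 166 and 202 CPM in the controls. Its groups did not overlap (log2 fold change -1.71, SE 0.506; edgeR adjusted p = 0.556). Its relatives Zfp36l1 and Zfp36l2 gave log2 fold changes of -0.31 (SE 0.473) and 0.37 (SE 0.345), and Khsrp, another decay factor, 0.27 (SE 0.359).

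Of 8 proteases that shed or trim chemokines, 7 were tested and 0 called by edgeR or DESeq2 (0 at an unadjusted edgeR p under 0.05), with 6 positive, 1 negative and a median of 0.53. The shares over all genes were 0% called by edgeR, 1.67% by DESeq2, 6.68% at that p and 48.9% negative. Adam10 and Adam17, sheddases of Cxcl16, lay close to no difference, with log2 fold changes of 0.04 (SE 0.208) and -0.18 (SE 0.242). Mmp12, the macrophage elastase that can cut neutrophil-attracting CXC chemokines, had 364 and 1537 CPM in labelled knockouts 1 and 2, against 514, 586 and 317 CPM in the controls. Mmp9, a gelatinase, had 42.3 and 406 CPM in labelled knockouts 1 and 2 and 50.0 to 99.7 CPM in the controls. In both genes labelled knockout 2 alone was above the controls. Dpp4, which trims Cxcl10 and Cxcl12, had no count in any library.

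Among themselves the members followed few shared patterns over the 5 libraries. The distance used is the root mean square difference of log2 CPM, each gene centred over the 5 libraries, and with 5 points it is a description. Cxcl14 and Cxcl16 were nearest, at 0.414, and Cxcl10 and Cxcl12 farthest, at 2.93. Cxcl9 and Cxcl10 lay 1.20 apart and Cxcl1 and Cxcl2 1.36 apart. Over libraries the log2 range was 1.35 for Cxcl14 and 7.02 for Cxcl10. Of 8535 other genes with a mean of at least 10 CPM, those nearest to Cxcl10 were Nupr1 (0.364), Ifit3b (0.611) and Isg15 (0.776). Nearest to Cxcl9 were H2-Q6 (0.441), Cd72 (0.486) and H2-Q7 (0.501). Nearest to Cxcl12 were Ctgf (0.599), Cd34 (0.768) and Cyr61 (0.985). Nearest to Cxcl2 were Cst7 (0.412), Osm (0.544) and Socs3 (0.550). Nearest to Cxcl14 were Banp (0.103), Smim3 (0.106) and Esd (0.130), to Cxcl16 Smg9 (0.109), Psme2 (0.141) and Otud1 (0.143), and to Cxcl1 Id3 (0.130), Cela1 (0.207) and Snrpd1 (0.233).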

How the data were processed

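RNA of 5 microglia libraries was extracted with Trizol and prepared with a NEBNext Ultra kit, per the labels' protocols. Read counts, as deposited by the authors, are whole numbers for each gene symbol and appear not to be normalized. The submitters' processing notes list FastQC, STAR, HTSeq and mm10. The sources used here give no versions, annotation or strand setting. Groups came from the titles, and the title of control 3 carries 2 numbers, of which its library number was used.

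Counts were tested with edgeR 4.0.16 in R 4.3.3 (quasi-likelihood F test, two-sided, filterByExpr, TMM, robust), with Benjamini-Hochberg adjustment over 12543 genes and 3 residual degrees of freedom. The standard error is the log2 fold change divided by the root of F. Log2 CPM used a prior count of 2. DESeq2 1.42.0 and limma 3.58.1 were alternatives. The edgeR steps were tested on simulated data. Lengths were found for 21926 of 21983 symbols in GENCODE M21, and RefSeq promoters for 6 of the 7 members. Members, lists and the naming rule (every member; otherwise the most abundant genes of a list; the 3 nearest genes) were chosen with earlier results of these data known. A gene that the rule names is not reported here.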

Additional observations from a re-analysis of the deposited data

How the results depend on the processing

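The 7 log2 fold changes stayed negative, with 0 of 7 members and 0 pathway genes called, under size factors of DESeq2, library totals, upper quartile factors, no filter, DESeq2, limma-voom and the replicate block. With a filter of at least 1 CPM in 2 libraries the 5 members that remained did so too. The other scalings moved the median of all genes by at most 0.02. Leaving out 1 library at a time turned 1 direction, that of Cxcl2, whose values ran from -2.99 without labelled knockout 2 to 0.11 without control 1. The ranges were -1.69 to -1.10 for Cxcl1, -8.36 to -2.44 for Cxcl9, -7.57 to -0.76 for Cxcl10, -5.47 to -3.78 for Cxcl12, -1.18 to -0.82 for Cxcl14 and -1.71 to -0.40 for Cxcl16. Cxcl1 failed the filter without control 1 or control 3, and Cxcl12 without control 1 or control 2. A lone library left in a group is assumed to vary like the others.

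With the replicate number as a block the values were -0.71 for Cxcl1, -1.73 for Cxcl2, -2.68 for Cxcl9, -2.24 for Cxcl10, -4.95 for Cxcl12, -1.18 for Cxcl14 and -1.12 for Cxcl16. Control 3 is the only library with its number, so its block absorbs it. These values therefore compare only the libraries numbered 1 and 2. Over all genes the block gave 4 calls where the fit without it gave 0 (838 at an unadjusted p under 0.05) and DESeq2 232. The numbers are not shown to pair libraries: deviations from the group means correlated across 12543 genes at 0.15 for the libraries numbered 1 and -0.56 for those numbered 2. Depth limits Cxcl1, Cxcl9 and Cxcl12, whose counts were under 100 in every library.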
